A study of Bos taurus with 9 samples.

Results

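The genes described here encode the transcription factors of the AP-1 complex and the early growth response (EGR) proteins. They were chosen by name as 3 families, the FOS family (FOS, FOSB, FOSL1, FOSL2), the JUN family (JUN, JUNB, JUND) and the EGR family (EGR1, EGR2, EGR3). The choice was made with earlier results of these data known. All 10 were found in the table of 21512 genes, and all 10 passed the filter on low counts that left 14020 genes to test. The RNA was sequenced in 9 samples of bovine ear fibroblasts before and during a conversion into adipocyte-like cells by small molecules. The 3 BEFs samples are the fibroblasts on day 0, titled as controls, from cultures kept in DMEM with fetal bovine serum and antibiotics. The 3 CiADCs-3d and 3 CiADCs-6d samples are the same kind of cell after 3 and 6 days in N2B27 medium, a defined medium without serum, with VPA at 500 µg/mL, TTNPB at 1 µM and RepSox at 10 µM. VPA inhibits histone deacetylases, TTNPB activates retinoic acid receptors, and RepSox blocks the type I receptor of TGF-beta. Every sample is labelled as wild type, and the treatment label reads reprogramming on all days, day 0 included.

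FOS proteins pair with JUN proteins to form AP-1, which binds DNA in the control regions of genes for growth, matrix breakdown and inflammation. FOS proteins cannot pair with each other, whereas JUN proteins can. EGR1, EGR2 and EGR3 are zinc finger proteins that bind GC-rich sites and are held back by the NAB co-repressors. Many of these genes are immediate early genes, which are switched on within minutes of serum, growth factors or stress without new protein synthesis, and their transcripts usually decay fast. Fibroblasts are the classical cells in which this response was studied, and FOS and EGR2 are known to be switched on early when cultured preadipocytes receive an adipogenic mix.

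There was no untreated culture of day 3 or day 6, and effects of the compounds, the medium and the time cannot be told apart. The medium was changed every 2 days, and the methods text does not give the time from the last change to harvest. An effect of that time cannot be told from one of the day. The labels do not say whether the samples of a group came from separate animals or separate inductions, so p-values measure the spread between these samples, which may be technical. Total counts ranged from 18509244 to 24071580. The samples numbered 1 stood apart from their group on both days. The mean squared difference between a pair of samples was 34.0 to 50.6 times the counting noise in pairs that held a CiADCs sample numbered 1. It was 13.5 and 15.1 times in the pairs of the samples numbered 2 and 3, and 2.46 to 9.3 times among BEFs. The 10 fibroblast markers summed to 61870 to 64580 CPM, which brings the counts of all libraries to a common total by TMM, in the fibroblast samples, 23150 to 34170 on day 3 and 15930 to 21210 on day 6. The 8 adipocyte markers summed to 22.77 to 29.14, 36.27 to 48.14 and 23.47 to 26.05 CPM. Of these, ADIPOQ, LPL and PPARG were higher than in BEFs on both days, and CEBPA was higher on day 6 only (log2 fold change 2.2). FABP4 and CIDEC were lower on both days, and PLIN1 passed on neither. From day 3 to day 6, CEBPA was higher, while LPL, PPARG and FABP4 were lower. LEP and CIDEC were under 1 CPM in every CiADCs-6d sample. LEP was not tested, with a mean of 0.4579 CPM on day 6 against 0.07205 in BEFs. PTPRC, which marks white blood cells, was at 0 in all 9 samples, while the blood cell list, led by the macrophage marker CD68, summed to 0.4886 to 0.9176, 2.604 to 5.961 and 4.301 to 9.636 CPM on days 0, 3 and 6. The epithelial list summed to 56.22 to 75.34, 89.77 to 115.6 and 88.04 to 100.6 CPM, the cartilage list to 320.4 to 324.0, 52.29 to 62.97 and 32.04 to 50.83 CPM, and the endothelial list stayed under 10 CPM. Single markers did not all follow their sums. In the cartilage list ACAN was lower than in BEFs (log2 fold changes -3.06 and -3.5 on days 3 and 6). COL2A1 (1.82 and 1.51) and COMP (2.24 and 2.63) were higher. In the epithelial list CDH1 was higher on both days, while KRT5 and KRT14 were lower on day 3. Of the 10 fibroblast markers, 5 were lower on day 3 and 2, PDGFRA and PDGFRB, were higher. On day 6, 7 were lower and 0 were higher. Over all genes tested, 29.1% were lower and 30.9% higher on day 3, and 31.9% and 35.6% on day 6. The list for melanocytes and Schwann cells was at 0 on days 0 and 3 and reached at most 0.3688 CPM on day 6. The part of these shifts in the results was not tested, and fewer cells of a type cannot be told from less RNA per cell in bulk samples.

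Both induced groups carried more RNA of most of these genes than BEFs. In CiADCs-3d, 8 of the 10 genes were higher than in BEFs, FOSL1 was lower and FOSL2 did not pass the test. In CiADCs-6d, 9 were higher and FOSL1 was again lower. A gene was called at an adjusted p under 0.05 in the quasi-likelihood test of edgeR, adjusted over all 14020 genes. Calls were common in these data, since 30.9% of all genes tested were higher and 29.1% were lower in CiADCs-3d, and 35.6% were higher and 31.9% were lower in CiADCs-6d. Under a stricter rule that also asked for a log2 fold change of 1 or more in size, 7 of the 10 genes were higher and 1 was lower in CiADCs-3d, where 18.2% and 9.94% of all genes were. In CiADCs-6d, 8 were higher by this rule, where 21.9% of all genes were higher and 13.4% lower, and the fall of FOSL1 did not reach the limit. The median log2 fold change of the 10 genes was 1.36 on day 3 and 1.44 on day 6, against 0.01 and 0.03 over all genes tested. Both comparisons use the same BEFs samples. The CPM of the 3 induced samples did not overlap with those of the 3 BEFs samples for 9 genes on each day, the exceptions being FOSL2 on day 3 and FOSL1 on day 6. This was common, since 70.5% of all genes tested did not overlap on day 3 and 72.7% on day 6.

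**Figure D1:**
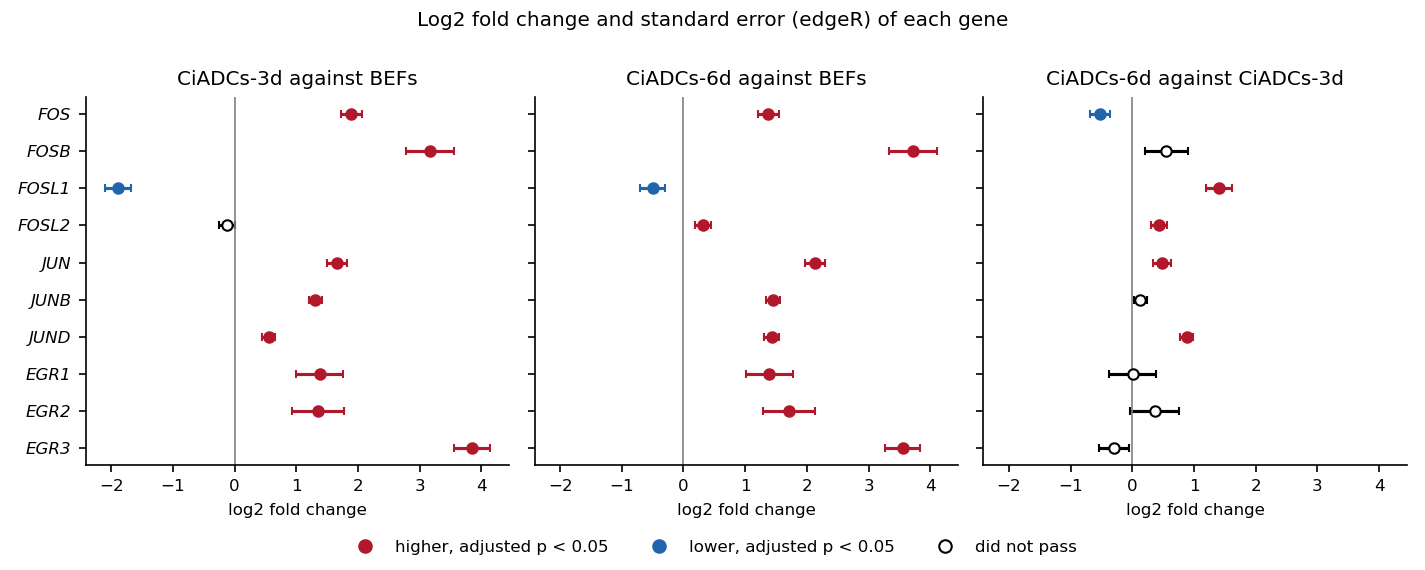
Log2 fold change (x axis, edgeR) of each of the 10 genes (y axis) in the 3 comparisons between groups, with bars of 1 standard error. Filled red points were higher and filled blue points lower at an adjusted p under 0.05, and open points did not pass. FOSB and EGR3 lie farthest to the right in both comparisons with BEFs, and FOSL1 lies to the left of 0 in both.

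The FOS family changed its leading members. FOS, the founding member with a strong activation domain, was at 32.69, 34.66 and 50.7 FPKM in the BEFs samples. FPKM, computed by the authors, is the number of fragments scaled to the length of the transcript and to the size of the library, which allows genes of different length to be compared. FOS (280795, the NCBI Gene ID) then stood at 159.5, 130.4 and 153.1 FPKM in CiADCs-3d and at 119.1, 91.48 and 102.6 FPKM in CiADCs-6d. Every induced sample lay above every BEFs sample, and every day 6 sample lay below every day 3 sample. FOS was 3.7-fold higher on day 3 (log2 fold change 1.89, SE 0.17, adjusted p = 1.38e-06) and 2.59-fold higher on day 6 (log2 fold change 1.37, SE 0.17, adjusted p = 1.5e-05).

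FOSB (540819), a close relative of FOS with a short splice form known as ΔFosB, was at 2.9, 3.24 and 9.77 FPKM in BEFs. It reached 62.74, 40.76 and 42.16 FPKM in CiADCs-3d and 80.57, 72.57 and 62.4 FPKM in CiADCs-6d. The table holds values per gene, so the splice forms were not told apart. FOSB was 8.96-fold higher on day 3 (log2 fold change 3.16, SE 0.39, adjusted p = 1.92e-05) and 13.2-fold higher on day 6 (log2 fold change 3.72, SE 0.39, adjusted p = 4.36e-06). The third BEFs sample carried 3.4 times as much as the lowest, and without it the folds were 15.6 and 22.8.

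FOSL1 (531389), which encodes FRA1, a FOS protein without the strong activation domain and an AP-1 member of migrating mesenchymal cells, went the other way. It was at 25.51, 24.06 and 31.12 FPKM in BEFs, at 9.32, 5.66 and 6.77 FPKM in CiADCs-3d and at 25.18, 17.13 and 15.38 FPKM in CiADCs-6d. The day 3 samples were below all others, while the highest day 6 sample lay within the range of BEFs. On day 3 FOSL1 fell by 1.89 on the log2 scale (SE 0.21, adjusted p = 7e-06), a 3.72-fold drop. On day 6 it was lower by a log2 fold change of -0.5 (SE 0.2, adjusted p = 0.039). Leaving out either BEFs replicate 1 (adjusted p = 0.0586) or BEFs replicate 3 (adjusted p = 0.148) ended that call. Leaving out CiADCs-6d replicate 2 (adjusted p = 0.124) ended it too, and so did leaving out replicate 3 of that group (adjusted p = 0.145).

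FOSL2 (509889), which encodes FRA2, the other FOS protein without a strong activation domain, was nearly level. It was at 63.01, 62.44 and 62.07 FPKM in BEFs, at 69.93, 51.99 and 54.34 FPKM in CiADCs-3d and at 71.26, 88.51 and 92.34 FPKM in CiADCs-6d. The day 3 samples lay on both sides of BEFs (log2 fold change -0.13, SE 0.13, adjusted p = 0.397). Without the CiADCs samples numbered 1, an alternative chosen after seeing the data, it was called lower on day 3 (log2 fold change -0.23, adjusted p = 0.0179). On day 6 it was 1.24-fold higher (log2 fold change 0.31, SE 0.13, adjusted p = 0.0449), and this call was lost without any of BEFs replicates 1 to 3, CiADCs-3d replicate 3 or CiADCs-6d replicates 2 and 3, with adjusted p between 0.0574 and 0.185.

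**Figure D2:**
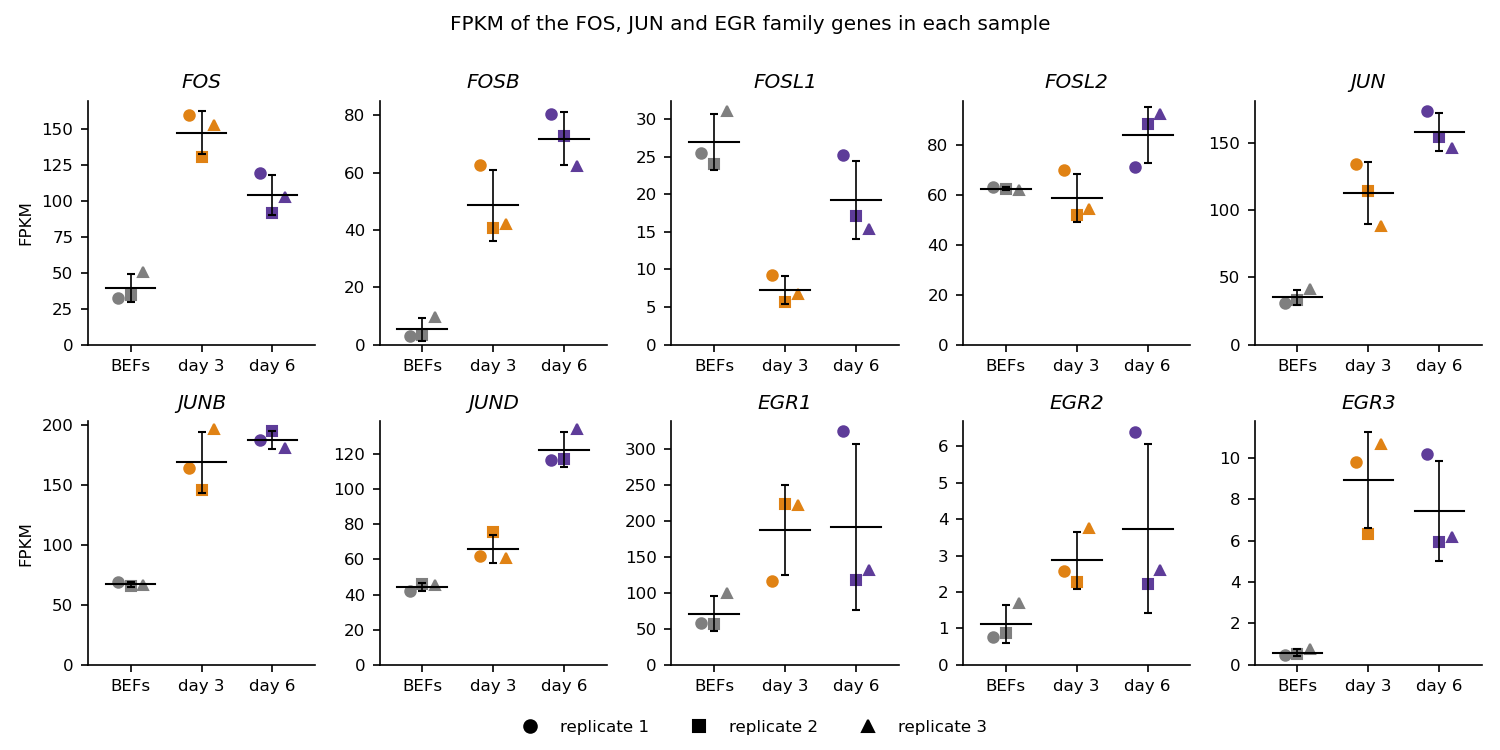
FPKM (y axis, linear, from 0) of each gene in each sample of BEFs, CiADCs-3d (day 3) and CiADCs-6d (day 6). Marker shapes give the replicate number, horizontal lines the mean of 3 samples and bars the SD, and each panel has its own scale. FOS peaks on day 3, JUN and JUND are highest on day 6, FOSL1 is lowest on day 3, and replicate 1 of CiADCs-6d lies far above the other two for EGR1 and EGR2.

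All members of the JUN family rose on both days. JUN (280831), the strongest activator of the family, was at 30.71, 33.22 and 41.28 FPKM in BEFs. It stood at 134.3, 114.5 and 88.29 FPKM in CiADCs-3d and at 173.8, 154.2 and 146.2 FPKM in CiADCs-6d, so the groups followed each other in order of day without overlap. JUN was 3.15-fold higher on day 3 (log2 fold change 1.66, SE 0.16, adjusted p = 2.01e-06) and 4.39-fold higher on day 6 (log2 fold change 2.13, SE 0.16, adjusted p = 1.87e-07).

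JUNB (514246), a weaker activator that can hold JUN back, was at 69.12, 65.56 and 66.2 FPKM in BEFs, at 164.1, 145.4 and 196.3 FPKM in CiADCs-3d and at 187.4, 194.7 and 180.2 FPKM in CiADCs-6d. It was 2.48-fold higher on day 3 (log2 fold change 1.31, SE 0.11, adjusted p = 9.26e-07) and 2.73-fold higher on day 6 (log2 fold change 1.45, SE 0.11, adjusted p = 3.1e-07). The 2 induced groups overlapped.

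JUND (517192), the JUN protein that resting cells make steadily and that is not a typical immediate early gene, was at 41.96, 45.76 and 45.14 FPKM in BEFs. It was at 61.64, 75.33 and 60.67 FPKM in CiADCs-3d and at 116.3, 117.1 and 133.9 FPKM in CiADCs-6d, with no overlap between any of the groups. It was 1.47-fold higher on day 3 (log2 fold change 0.55, SE 0.11, adjusted p = 0.00121) and 2.7-fold higher on day 6 (log2 fold change 1.43, SE 0.12, adjusted p = 4.18e-07).

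The EGR family was higher on both days, with wide spread between replicates. EGR1 (407125), the main EGR protein of stimulated fibroblasts, was at 57.52, 56.4 and 99.86 FPKM in BEFs. It was at 115.8, 223.8 and 222.3 FPKM in CiADCs-3d and at 324.3, 118.0 and 131.7 FPKM in CiADCs-6d. Replicate 1 was thus the lowest of the day 3 samples and the highest of the day 6 samples. EGR1 was 2.6-fold higher on day 3 (log2 fold change 1.38, SE 0.38, adjusted p = 0.00798) and 2.61-fold higher on day 6 (log2 fold change 1.39, SE 0.38, adjusted p = 0.00655). Without CiADCs-6d replicate 1, the day 6 fold was 1.68 (log2 fold change 0.75, adjusted p = 0.0365).

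EGR2 (100297981), also known as KROX20 and as an early promoter of adipogenesis in cultured preadipocytes, was low throughout. It was at 0.76, 0.88 and 1.71 FPKM in BEFs, from counts of 39, 50 and 93. It was at 2.58, 2.28 and 3.75 FPKM in CiADCs-3d and at 6.4, 2.21 and 2.61 FPKM in CiADCs-6d. All induced samples were above all BEFs samples. EGR2 was 2.54-fold higher on day 3 (log2 fold change 1.35, SE 0.42, adjusted p = 0.0156) and 3.26-fold higher on day 6 (log2 fold change 1.71, SE 0.42, adjusted p = 0.00324). The day 3 call was lost without BEFs replicate 1, BEFs replicate 2 or CiADCs-3d replicate 3 (adjusted p of 0.0636, 0.061 and 0.0669), and the day 6 fold was 2.07 without CiADCs-6d replicate 1.

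EGR3 (526233), which EGR1 itself can switch on in other cells, had the largest fold on day 3 among the 10 genes by edgeR. It was at 0.47, 0.55 and 0.77 FPKM in BEFs (counts of 28, 39 and 48), at 9.81, 6.31 and 10.64 FPKM in CiADCs-3d and at 10.19, 5.91 and 6.17 FPKM in CiADCs-6d. The lowest induced sample lay far above the highest BEFs sample. EGR3 was 14.4-fold higher on day 3 (log2 fold change 3.85, SE 0.29, adjusted p = 2.89e-07) and 11.7-fold higher on day 6 (log2 fold change 3.55, SE 0.29, adjusted p = 4.58e-07). On the log2(FPKM + 1) scale, where low levels are compressed, limma gave log2 fold changes of 2.61 and 2.37, and the day 3 value of FOSB on that scale, 3.11, was the larger.

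The comparison of the induced groups with each other asks which of these genes moved between day 3 and day 6. Of the 10 genes, 4 were higher on day 6 than on day 3, FOS was lower and 5 did not pass. Over all genes tested, 14.4% were higher and 13.6% were lower. With the added limit on the fold change, FOSL1 was the single gene of the 10 that was higher, and the fall of FOS did not reach the limit, against 4.09% of all genes higher and 3.22% lower. The median log2 fold change of the 10 genes was 0.4, against 0.01 over all genes tested. The CPM of the days did not overlap for 5 genes, FOS, FOSB, FOSL1, JUN and JUND, and for 37.1% of all genes tested. FOSL1 recovered by a log2 fold change of 1.4 (SE 0.21, adjusted p = 0.000819) and JUND rose by 0.88 (SE 0.11, adjusted p = 0.000411). These calls of FOSL1 and JUND held in all 20 alternative analyses. JUN was higher by 0.48 (SE 0.15, adjusted p = 0.035) and FOSL2 by 0.44 (SE 0.13, adjusted p = 0.0234), and FOS was lower with a log2 fold change of -0.52 (SE 0.16, adjusted p = 0.0355). The call of FOS was lost without CiADCs-3d replicate 3, CiADCs-6d replicate 2 or its replicate 3 (adjusted p from 0.0888 to 0.104). That of FOSL2 was lost without replicate 2 or 3 of either day (adjusted p from 0.0757 to 0.125). That of JUN was lost without BEFs replicate 2, without replicate 2 or 3 of CiADCs-3d and without any of the CiADCs-6d samples (adjusted p from 0.0561 to 0.154). Among the genes that did not pass, the log2 values were 0.13 (SE 0.11) for JUNB, 0.55 (SE 0.35) for FOSB, 0.01 (SE 0.38) for EGR1, 0.36 (SE 0.39) for EGR2 and -0.3 (SE 0.24) for EGR3.

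The values of the EGR family between the days moved with the samples numbered 1. Without CiADCs-6d replicate 1, EGR1 stood at -0.65 on the log2 scale from day 3 to day 6 (adjusted p = 0.108) and EGR2 at -0.32 (adjusted p = 0.459), while EGR3 was called lower with -0.65 (adjusted p = 0.0283). The sign of EGR1, whose value was near 0, also turned with other scalings and tools on all samples. Without both CiADCs samples numbered 1, the log2 fold change of EGR1 from day 3 to day 6 was -0.91 (adjusted p = 0.00205) and that of EGR2 was -0.41 (adjusted p = 0.299). EGR3 was again called lower, with -0.59 (adjusted p = 0.0262), and its sign was the same in all 20 alternatives. FOSB was called higher on day 6 than on day 3 only when BEFs replicate 3 was left out (log2 fold change 0.55, adjusted p = 0.0302), among the 20 alternatives.

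The make-up of each family was taken as each gene's percent of the summed FPKM of its family, as a description without a test. The FOS family summed to 134.1 ± 16.98 FPKM before induction, 262.2 ± 36.68 on day 3 and 279.5 ± 14.45 on day 6 (SD, n = 3). In BEFs, FOSL2 made up 47.1% ± 5.83, FOS 29.1% ± 3.49 and FOSB 3.77% ± 2.25 of it, while FOSL1 held 20.6%, 19.3% and 20.3% in the 3 samples. In CiADCs-3d, FOS made up 56.5% ± 3.43, FOSL2 22.4% ± 1.04, FOSB 18.4% ± 2.23 and FOSL1 2.74% ± 0.32. In CiADCs-6d, FOS made up 37.3% ± 3.17, FOSL2 30.2% ± 5.38, FOSB 25.7% ± 2.42 and FOSL1 6.83% ± 1.49. FOSL2 and FOSL1, the members without a strong activation domain, were thus the larger part of the family in BEFs and the smaller part on both later days. Taken from CPM, without correction for length, FOS made up 21.0%, 43.7% and 27.0% in the 3 groups and FOSL2 61.1%, 30.7% and 37.2%, so that FOSL2 led again on day 6 on that scale.

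The JUN family summed to 146.3 ± 5.629 FPKM before induction, 346.9 ± 12.47 on day 3 and 467.9 ± 8.847 on day 6. JUNB held 45.8%, 48.6% and 40.1% of it in the 3 groups, JUN 23.9%, 32.3% and 33.7%, and JUND 30.3%, 19.1% and 26.2%. The EGR family summed to 72.97 ± 25.44, 199.1 ± 61.44 and 202.5 ± 120.0 FPKM, of which EGR1 held 97.7%, 93.5% and 94.1%. EGR3 went from 0.834% of the family in BEFs to 4.95% and 4.02%, and EGR2 held 1.5%, 1.53% and 1.83%.

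**Figure D3:**
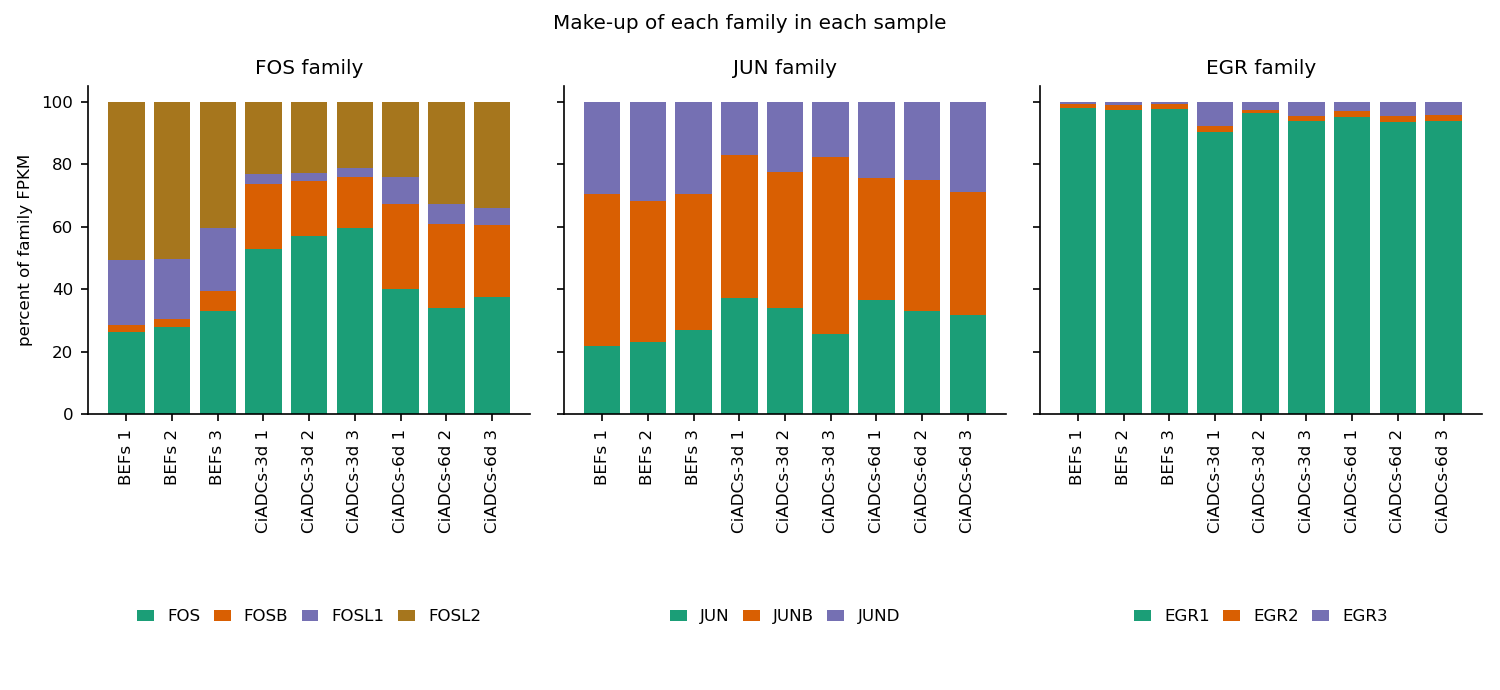
Percent of the summed FPKM of each family (y axis) held by each gene in each of the 9 samples (x axis), as stacked bars. FOSL2 and FOSL1 fill more of the FOS family in every BEFs sample than in any CiADCs sample, and EGR1 fills over 90% of the EGR family in all 9 samples.

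By mean FPKM, EGR1 and JUNB were the highest of the 10 genes in all 3 groups, and their samples overlapped in each. In BEFs, EGR1 at 71.26 ± 24.77 FPKM and JUNB at 66.96 ± 1.898 were followed by FOSL2, JUND, FOS, JUN, FOSL1, FOSB, EGR2 and EGR3. JUND, FOS, JUN and FOSL1 overlapped each with the next, as did EGR2 and EGR3. In CiADCs-3d, the order was EGR1 at 187.3 ± 61.93, JUNB at 168.6 ± 25.72, FOS, JUN, JUND, FOSL2, FOSB, EGR3, FOSL1 and EGR2. EGR1 to JUN overlapped each with the next, as did JUND to FOSB and EGR3 with FOSL1. In CiADCs-6d, the order was EGR1 at 191.3 ± 115.3, JUNB at 187.4 ± 7.265, JUN, JUND, FOS, FOSL2, FOSB, FOSL1, EGR3 and EGR2. JUND to FOSB overlapped each with the next, as did EGR3 with EGR2. FOSB lay above 43.1% of all genes tested in BEFs and above 93.0% of them in CiADCs-6d, the widest move in rank between these groups. EGR1 lay above 93.8%, 97.6% and 97.5% of the genes tested in the 3 groups, so it was among the abundant transcripts before the compounds were added.

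The spread between replicates differed from gene to gene. In BEFs, the highest sample of JUNB, FOSL2 and JUND was at 1.07, 1.04 and 1.08 times the lowest. In CiADCs-3d the same ratios were 1.35, 1.29 and 1.25. FOSB varied by 3.4 times in BEFs, and EGR1 and EGR2 by 2.78 and 2.93 times in CiADCs-6d. BEFs replicate 3 was the highest of its group for 8 of the 10 genes, and for 39.1% of all genes tested. CiADCs-6d replicate 1 was the highest of its group for 7 of the 10 genes, and for 40.2% of all genes tested. The 26 other immediate early genes of the lists leaned to the same samples, since BEFs replicate 3 was the highest for 19 and CiADCs-6d replicate 1 for 16 of them. CiADCs-3d replicate 2 was the lowest of its group for 7 of the 10 genes and for 21 of the 26, and for 34.9% of all genes tested.

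**Figure D4:**
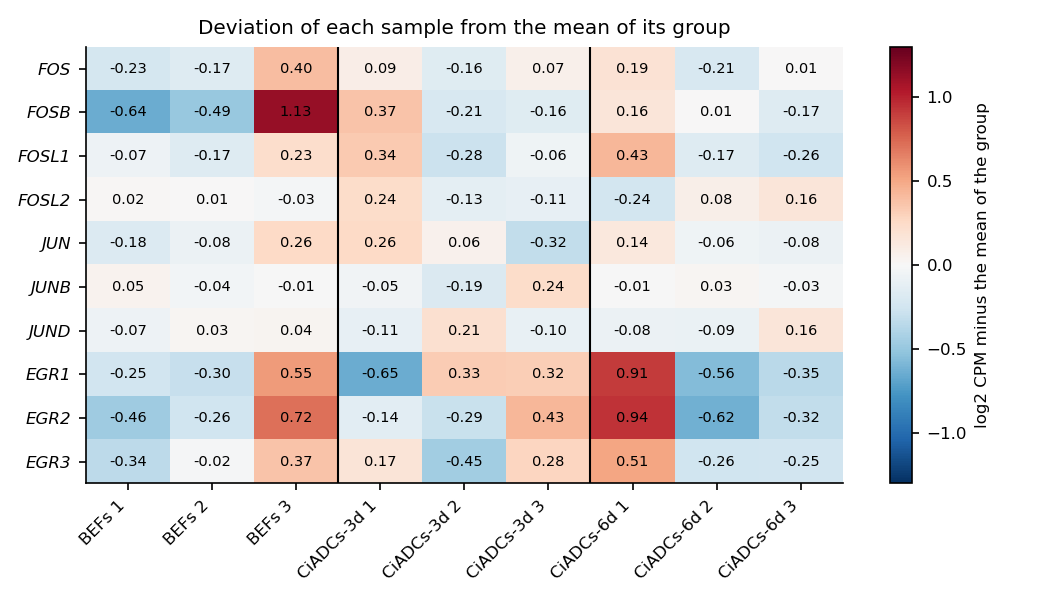
Deviation of each sample (x axis) from the mean of its own group, in log2 CPM (color and printed value), for each of the 10 genes (y axis). The largest deviations are FOSB in BEFs replicate 3 (1.13) and EGR2 and EGR1 in CiADCs-6d replicate 1 (0.94 and 0.91).

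Of 12 other leucine zipper proteins that pair with FOS or JUN proteins, 11 could be tested. On day 3, 8 were higher and ATF7 was lower, with a median log2 fold change of 0.82. The number lower on day 3 was 0 without BEFs replicate 3 and 2 without CiADCs-3d replicate 1. On day 6, 8 were higher and ATF7 and JDP2, a repressor of AP-1, were lower, with a median of 1.83. Over all genes tested, 30.9% were higher and 29.1% lower on day 3, and 35.6% and 31.9% on day 6. ATF3, a stress-induced partner of JUN, was at 5.73, 6.05 and 11.01 FPKM in BEFs, at 52.96, 27.68 and 30.31 FPKM in CiADCs-3d and at 147.2, 100.5 and 94.35 FPKM in CiADCs-6d. It rose again between the days (log2 fold change 1.6, SE 0.28, adjusted p = 0.00201). BATF2, a partner of JUN without an activation domain, had log2 fold changes of 3.79 (SE 0.27) and 3.7 (SE 0.27) on days 3 and 6. The small MAF proteins lack an activation domain too. MAFF rose by 1.47 and 3.34, MAFK by 0.48 and 1.83 and MAFG by 0.29 and 1.1 on the log2 scale on days 3 and 6, and all 3 also rose between the days. ATF7 and JDP2 are named outside the rule for naming genes, since they are the members that were lower.

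The EGR relatives and co-repressors formed a list of 3 genes. EGR4 was listed at 0 in 7 of the samples and at 0.02 and 0.05 FPKM in BEFs replicate 3 and CiADCs-6d replicate 2, and it was not tested. NAB1, a co-repressor of EGR proteins, was at 9.07, 9.74 and 10.4 FPKM in BEFs and rose by a log2 fold change of 0.99 (SE 0.12, adjusted p = 1.67e-05) on day 3 and 1.56 (SE 0.12, adjusted p = 2.41e-07) on day 6. NAB2, the other co-repressor and a gene that EGR1 can switch on, did not pass the test, with log2 fold changes of 0.43 (SE 0.22) and 0.29 (SE 0.22). Without CiADCs-3d replicate 2, both NAB genes were called higher on day 3.

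Of 26 other immediate early genes, all tested, 18 were higher and 5 were lower on day 3 (median log2 fold change 0.88), and 20 were higher and 1 was lower on day 6 (median 2.12). Between the days, 20 were higher and 6 did not pass, with a median of 0.9. Of all genes tested, 30.9% were higher and 29.1% lower on day 3, and 35.6% and 31.9% on day 6. From day 3 to day 6 these shares were 14.4% and 13.6%. PTGS2, the inducible cyclooxygenase, went from 0.05, 0.1 and 0.2 FPKM (counts of 4, 8 and 16) in BEFs to 4.91, 3.27 and 3.44 FPKM in CiADCs-3d and 9.78, 6.17 and 5.9 FPKM in CiADCs-6d. TRIB1, a pseudokinase, rose by 2.83 (SE 0.3) and 3.9 (SE 0.31) on the log2 scale and NFKBIZ, a nuclear partner of NF-kappaB, by 2.82 (SE 0.2) and 3.45 (SE 0.21). NR4A3, an orphan nuclear receptor, rose by 2.71 (SE 0.51) and 3.73 (SE 0.51). ZFP36, which speeds the decay of transcripts with AU-rich elements, rose by 1.73 (SE 0.3) and 3.12 (SE 0.31). GADD45B rose by 0.76 (SE 0.23) on day 3 and 3.42 (SE 0.23) on day 6.

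The 5 immediate early genes that were lower on day 3 were CCN2, KLF2, KLF6, KLF10 and RHOB, named here after their values were seen. CCN2, a matrix protein known as a target of TGF-beta, was at 734.2, 752.2 and 813.2 FPKM in BEFs, at 158.1, 111.4 and 122.8 FPKM in CiADCs-3d and at 335.7, 248.3 and 270.0 FPKM in CiADCs-6d. It was the one that was still lower on day 6 (log2 fold change -1.47, SE 0.14, adjusted p = 2.31e-06). On day 3, KLF2 fell by 1.37, KLF6 by 1.34, KLF10 by 1.19 and RHOB by 0.82 on the log2 scale. All 5 were higher on day 6 than on day 3, as FOSL1 was and as 20 of all 26 were. The 5 were picked for low values in the same day 3 samples, which favours such a rise.

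Of 19 kinases and factors upstream of these genes, 3 were higher and 8 were lower on day 3. On day 6, 3 were higher and 7 were lower. The median log2 fold changes were -0.14 on day 3 and -0.03 on day 6. The number higher on day 3 was 1 without BEFs replicate 1, BEFs replicate 2 or CiADCs-3d replicate 1. Among all genes tested, 30.9% were higher and 29.1% lower on day 3, and 35.6% and 31.9% on day 6. By the stricter rule, 0 of the 19 passed on day 3 and 1, which was higher, on day 6. The shares over all genes by that rule were 18.2% higher and 9.94% lower on day 3, and 21.9% and 13.4% on day 6. SRF, the factor that binds the serum response element of FOS and EGR1, was at 20.94 to 24.61 FPKM in BEFs and did not pass the test on day 3 (log2 fold change -0.23, SE 0.13) or day 6 (-0.12, SE 0.13). Its cofactor MRTFB was lower by log2 fold changes of -0.94 (SE 0.11) and -1.0 (SE 0.11), and ELK3, a ternary complex factor that mostly represses, by -0.81 (SE 0.16) and -0.65 (SE 0.16). MAPK9, which encodes JNK2, was lower by -0.52 (SE 0.11) and -0.68 (SE 0.11). RPS6KA1, a ribosomal S6 kinase downstream of ERK, was higher by 0.52 (SE 0.15) and 0.95 (SE 0.15). RPS6KA3, of the same kinase family, rose on day 3 by 0.54 (SE 0.19) and had a log2 fold change of 0.18 (SE 0.19) on day 6. RNA levels say nothing of the activity of these kinases.

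Of 17 genes known as AP-1 targets, 16 could be tested. On day 3, 8 were higher and 6 were lower (median log2 fold change 0.31), and on day 6, 10 were higher and 4 were lower (median 1.34). The number lower on day 6 was 2 without BEFs replicate 1 or BEFs replicate 3. The shares over all genes tested were 30.9% higher and 29.1% lower on day 3, and 35.6% and 31.9% on day 6. CXCL8, a chemokine for neutrophils, went from 0.4, 0.17 and 0.47 FPKM (counts of 13, 6 and 16) in BEFs to 93.46, 59.23 and 62.17 FPKM in CiADCs-3d and 129.0, 153.0 and 113.2 FPKM in CiADCs-6d. MMP1, the interstitial collagenase and a textbook AP-1 target, was at 0.95 to 1.14 FPKM in BEFs and rose by 2.26 (SE 0.32) and 4.55 (SE 0.32) on the log2 scale. IL6 was at 3.25 to 5.23 FPKM in BEFs and reached 143.2, 34.91 and 51.96 FPKM in CiADCs-3d, with a log2 fold change of 4.25 (SE 0.46). HBEGF, a ligand of the EGF receptor, rose by 2.68 (SE 0.45) and 4.39 (SE 0.45), LIF by 2.35 (SE 0.31) and 2.7 (SE 0.31) and SPP1, which encodes osteopontin, by 1.52 (SE 0.28) and 2.25 (SE 0.29). Targets that were lower on both days included MMP3, MMP9 and CCND1, named after their values were seen. CCND1, which encodes cyclin D1, was lower by log2 fold changes of -1.16 (SE 0.11) and -0.98 (SE 0.11).

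Of 11 genes known as EGR1 targets, 5 were higher and 2 were lower on day 3 (median log2 fold change 0.43), and 6 were higher and 3 were lower on day 6 (median 0.55). As above, 30.9% of all genes tested were higher and 29.1% lower on day 3, and 35.6% and 31.9% on day 6. PDGFB, a growth factor chain, had counts of 0, 2 and 2 in BEFs and stood at 4.2, 4.96 and 4.07 FPKM in CiADCs-3d and at 7.6, 9.92 and 10.36 FPKM in CiADCs-6d. ICAM1, an adhesion receptor for leukocytes that NF-kappaB also controls, was at 4.87 to 5.27 FPKM in BEFs and rose by 3.41 (SE 0.15) and 4.96 (SE 0.16) on the log2 scale. FGF2 rose by 2.27 (SE 0.21) and 3.43 (SE 0.21), F3, which encodes tissue factor, by 1.43 (SE 0.28) and 2.17 (SE 0.28), and IGF2 by 1.45 (SE 0.18) and 2.08 (SE 0.18). These lists describe known roles, and binding of AP-1 or EGR proteins was not measured.

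**Figure D5:**
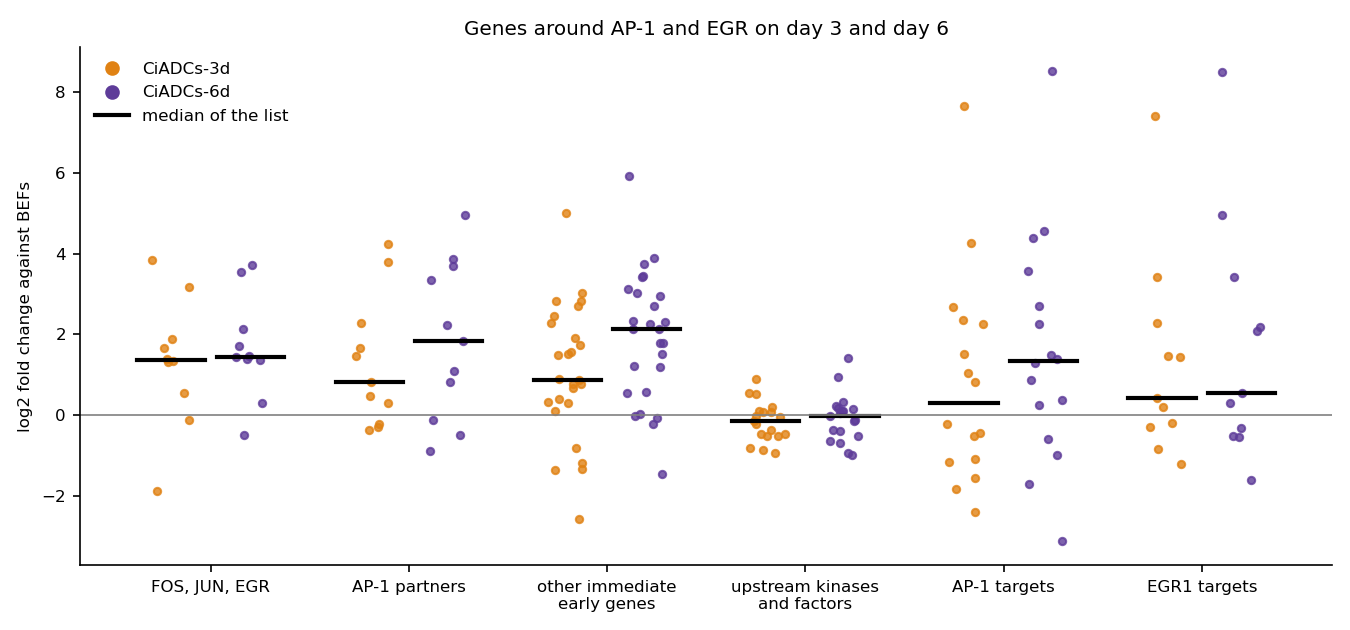
Log2 fold change against BEFs (y axis, edgeR) of each tested gene of the 3 families and of 5 lists of related genes (x axis) in CiADCs-3d (orange) and CiADCs-6d (purple), with black lines at the median of each list. The medians of the other immediate early genes are 0.88 and 2.12, and those of the upstream kinases and factors are -0.14 and -0.03.

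The genes whose profiles lay nearest to those of FOS, JUN and EGR1 were sought among 9715 others with at least 10 CPM in their highest group. The measure was the root mean square difference in log2 CPM over the 9 samples, after each gene was centred on its mean in BEFs. A low value thus means a like change from BEFs. For FOS they were MYADM (0.195), SLC2A9 (0.202) and CBX6 (0.218). For JUN they were SFMBT2 (0.145), HIVEP1 (0.158) and TBX3 (0.161). For EGR1 they were GPX1 (0.318), CLEC3B (0.324) and RGS9 (0.33), at greater distances than the neighbours of FOS and JUN. The mean CPM of CBX6 was 39.91 ± 2.229 on day 0, 141.6 ± 21.15 on day 3 and 102.6 ± 8.767 on day 6 (SD, n = 3), the same order of groups as FOS. That of HIVEP1 was 16.54 ± 2.216, 49.13 ± 4.761 and 74.24 ± 0.3558, the same order as JUN. Both genes were picked for likeness over these same samples, so a shared order of groups follows largely from that choice. The points of such a profile share the libraries and their depth, and no test was made of the likeness.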

How the data were processed

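In the deposited table, 1 column per sample gives expected counts, the reads estimated for each gene, not normalized. Others give FPKM values, which the authors had scaled to gene length and library size before they were deposited. The submitters' processing notes list HISAT2 2.2.4, RSEM, StringTie 1.3.1 and fastp 0.18.0 with no roles, the methods text names TopHat and HTSeq, and the genome build is not given in the sources used here. The labels name Ribo-Zero for the libraries and the methods text oligo(dT). Of all count values above 0, 7.51% were not whole, while all 90 values of the 10 genes were.

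Counts were rounded, filtered by filterByExpr of edgeR 4.0.16 (minimum count 10, minimum total 15) and scaled with TMM. All 9 samples entered 1 quasi-likelihood fit on group, with Benjamini-Hochberg adjustment over the 14020 genes tested. The standard error of a log2 fold change is its size over the root of its F statistic. Overlap between groups was judged on CPM scaled by TMM. R 4.3.3, limma 3.58.1, DESeq2 1.42.0, Python 3.11.15, pandas 2.3.3 and matplotlib 3.10.9 were used, and the fit was tested on simulated data.

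The 10 genes were matched by symbol or NCBI Gene ID, 9 by the exact symbol. FOSL1 is spelled Fosl1 in the table. All 122 entries of the gene and marker lists were found, 16 under another spelling. The members and lists were chosen with earlier results of these data known. The genes named from a list are at most 6 with the largest absolute log2 fold change against BEFs among the called genes with at least 10 CPM in the highest group, plus EGR4, NAB1, NAB2, SRF and ATF3, and 4 list genes are not reported here by name. The 3 nearest profiles were named for FOS, JUN and EGR1, with a pseudocount of 0.5. Alternatives were other scalings, filters and tools, a replicate block, a fit of only the 2 groups compared, and single samples left out. The fit without both CiADCs samples numbered 1 was added after the data were seen.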

Additional observations from a re-analysis of the deposited data

Results flagged for a closer look

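Between day 3 and day 6, 5 of the 10 genes differed by the edgeR test of the difference itself. Over all genes tested, 14.4% were higher and 13.6% were lower on day 6. The log2 fold change of CiADCs-6d against CiADCs-3d was -0.52 for FOS (adjusted p = 0.0355), 1.4 for FOSL1 (adjusted p = 0.000819), 0.44 for FOSL2 (adjusted p = 0.0234), 0.48 for JUN (adjusted p = 0.035) and 0.88 for JUND (adjusted p = 0.000411). FOS was the member that was lower on the later day, and every CiADCs-6d sample lay below every CiADCs-3d sample. The calls of FOSL1 and JUND held in all 20 alternatives, those of FOS, FOSL2 and JUN in 16, 14 and 10.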

How the results depend on the processing

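Each fold change of the 10 genes was recomputed under 20 alternatives, and 19 of the 30 kept their direction and their side of the threshold in all of them. The number of these genes lower on day 3 was 2 in place of 1 without the CiADCs samples numbered 1. The number lower on day 6 against BEFs was 0 in place of 1 with total-count scaling, with at least 10 counts in every sample and with limma on unfiltered FPKM (pseudocount 1), and 0 to 1 with single samples left out. The number higher on day 6 against day 3 was 2 in place of 4 with the replicate block and with only the 2 groups compared, and 2 to 5 with single samples left out. The number lower was 0 in place of 1 with limma on unfiltered FPKM, 3 without the CiADCs samples numbered 1, and 0 to 2 with single samples left out.

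The log2 fold change of EGR1 from day 3 to day 6, 0.01, turned to -0.04 with upper-quartile scaling and with the replicate block, -0.01 with DESeq2, 0.0 with no filter, -0.06 with limma on log2 FPKM at each of its settings and -0.91 without the CiADCs samples numbered 1, and ranged from -0.65 to 0.24 with single samples left out. That of EGR2 was -0.41 without the CiADCs samples numbered 1 and ranged from -0.32 to 0.62 with single samples left out. Between the days, the call was lost in 4 alternatives for FOS, 6 for FOSL2 and 10 for JUN. The call on day 6 against BEFs was lost in 7 for FOSL1 and 9 for FOSL2. The replicate block ended the calls of FOSL2 in CiADCs-6d against BEFs (adjusted p = 0.0791) and of FOSL2 and JUN between the days (0.0532 and 0.0664), and no other of these genes. Samples with the same number did not deviate together, with correlations from -0.424 to 0.221, so the numbers were not taken to pair them. The cause of these shifts was not tested.

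Over all genes, the number higher between the days was 2019 and ranged from 1006 to 3224 under the alternatives, and the number lower was 1904 and ranged from 1079 to 3690. By the rule with the fold change limit limma on log2(FPKM + 1) gave low counts, with 1433 higher and 928 lower in place of 2552 and 1393 on day 3, 1824 and 1223 in place of 3075 and 1874 on day 6, and 224 and 97 in place of 574 and 451 between the days (220 and 95 without its filter). Of 720 recomputed list counts, 664 stayed within 1.5 times. EGR2 and EGR3 in BEFs rest on under 100 counts a sample, which limits their folds.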
